A study of Mus musculus with 14 samples.

Results

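Serpina3n, C4b, Gfap, Vim, Aqp4, Gja1, Aldh1l1, Glul, Apoe and Clu are genes of astrocyte identity and astrocyte reactivity, and their RNA and ribosome footprints were followed in the cortex of Fmr1 knockout (KO) mice. These 10 genes were picked by symbol from 23412 genes in the deposited count table. Serpina3n had been picked because its RNA was lower in the KO, so RNA differences between genotypes are given for the 10 genes as descriptions and are not tested. Ribosome footprints, the mRNA fragments that ribosomes shield from nuclease, are a separate assay of the same cortex and were tested.

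All mice were labelled Rpl22flox/flox and CamKCre+, from a CAMKIIa-Ribotag line, and the KO mice carried in addition the Fmr1 genotype labelled Fmr1X-Y. In the Ribotag design Cre switches on a tagged ribosomal protein, and a Camk2a-driven Cre acts in excitatory neurons. The protocols name no pull-down of tagged ribosomes, so footprints came from monosomes of the cortical lysate with its glia included. Ages were not given. RNA was sequenced from 4 controls, mice 1, 3, 6 and 8, and from 4 KO animals, mice 2, 4, 5 and 7. Footprints came from 3 controls, mice 1, 3 and 9, and from 3 KO animals, mice 2, 4 and 10.

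Library sizes ran from 8847547 to 11371851 counts per RNA library and from 4124065 to 6033030 per footprint library. Fmr1, the targeted gene, had 111 to 115 footprint CPM (counts scaled by library size) in controls and 5.84 to 8.56 in the KO, and 71.4 to 90.0 RNA CPM in controls and 18.1 to 23.4 in the KO. The RNA libraries of KO mice 2, 4 and 7 differed from each other little more than read sampling allows, at 1.18 to 1.32 when chi-square over genes was divided by its degrees of freedom, where 1 is sampling noise. KO mouse 5 stood at 5.64 to 6.02 from those 3 libraries, control mice 1 and 3 at 1.99 from each other, and the other control pairs at 4.03 to 11.8. Footprint libraries of one genotype stood at 1.15 to 1.42 from each other. The labels number them as different mice, and p-values below measure the spread between these libraries, which may be smaller than that between animals.

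Astrocytes take up glutamate and potassium around synapses, are coupled to each other by gap junctions and line blood vessels with water channels in their endfeet. After injury or inflammation they become reactive: they build intermediate filaments from Gfap and vimentin and secrete acute-phase and complement proteins. Serpina3n, a secreted serine protease inhibitor, is among the genes most strongly raised in reactive astrocytes, and Gfap transcription is known to respond to the cytokine-activated factor Stat3. In bulk cortex, fewer astrocytes and less RNA per astrocyte cannot be told apart. The labelled tissue held astrocyte RNA: none of the 42 homeostatic astrocyte marker genes listed beside the 10 was at 0, and their summed RNA level overlapped between genotypes, at 9234 to 10802 CPM in controls and 9524 to 10771 in the KO. Their summed footprint level was 16767 to 16856 CPM in controls and 16344 to 16596 in the KO. Sparcl1 and Slc1a2 had the highest levels of the 42 genes and weigh most in these sums. Their control means were 5247 and 3100 CPM in footprints and 2677 and 2105 in RNA. Sparcl1 footprints fell to 4750 CPM in the KO, while footprints of 13 of the 42 genes rose and of 5 fell. The sums therefore do not speak for most of the list.

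Serpina3n, Gfap and C4b were the reactivity genes whose genotypes did not overlap in either assay. The promoters of Serpina3n and Gfap are printed, and that of C4b was not used here. Each runs from 250 bases before the transcript start to 10 bases from it on, 5′ to 3′ on the gene's strand, from RefSeq on GRCm38.p6. Serpina3n is on the plus strand at chr12:104406458-104406717 and Gfap on the minus strand at chr11:102897191-102897450. Capitals mark the letters TTCNNNGAA, the palindrome that Stat factors can bind, which reads the same on both strands.
Serpina3n: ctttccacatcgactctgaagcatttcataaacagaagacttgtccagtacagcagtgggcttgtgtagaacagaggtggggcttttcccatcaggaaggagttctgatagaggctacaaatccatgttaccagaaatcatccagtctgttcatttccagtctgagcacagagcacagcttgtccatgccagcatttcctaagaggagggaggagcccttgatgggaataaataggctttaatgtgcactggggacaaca
Gfap: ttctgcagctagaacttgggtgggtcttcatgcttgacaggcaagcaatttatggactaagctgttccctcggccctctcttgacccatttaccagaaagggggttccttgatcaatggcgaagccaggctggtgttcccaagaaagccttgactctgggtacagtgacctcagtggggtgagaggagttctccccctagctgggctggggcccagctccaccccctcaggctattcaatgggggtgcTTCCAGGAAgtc
The match in Gfap spans base −2 to base 6, counted from 0 at the first transcribed base. Among 32851 promoter windows of 300 bases in the table, 2726 (8.3%) held a match. Of the 10 genes, 7 had a promoter considered here (9 windows), and no other of these windows matched. A match is a string of letters and not a measured binding site.

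Among the 4 reactivity genes, footprints fell in the KO for all 4: Serpina3n to 19.3% of the control mean, C4b to 67.6%, Gfap to 78.9% and Vim to 85.3%. Footprints of Gja1, a gap junction protein, fell to 82.6%, those of Glul and Clu rose to 111% and 107%, and those of Aqp4, Aldh1l1 and Apoe did not pass the test. Thus 7 of the 10 genes were called (5 lower, 2 higher), where 25.5% of the 12158 genes tested were called (13.6% lower and 11.9% higher). A call is an adjusted p under 0.05 in edgeR's quasi-likelihood test over all genes. The same 7 genes had footprint groups that did not overlap, against 37.3% of all genes (19.2% lower and 18.1% higher). The median footprint log2 difference (KO against control) of the 10 genes was −0.15 and that of all genes 0.005. The median size of the difference, whatever its sign, was 0.193 for the 10 genes and 0.159 for all genes. Footprint calls varied between the marker lists given below. Called were 7 of 10 oligodendrocyte, 4 of 6 oligodendrocyte precursor, 6 of 6 hypothalamic and 7 of 8 meningeal genes. The excitatory and inhibitory neuron lists had 4 of 8 each, and endothelium with pericytes 4 of 10. Microglia had 2 of 10, choroid plexus with ependyma 1 of 5 and radial and Bergmann glia with progenitors 1 of 7. A high share was thus not limited to the 10 genes. Lists were not matched for level.

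In RNA, 8 of the 10 genes had a lower and 2 a higher fitted KO level. The groups did not overlap for Serpina3n, C4b, Gfap, Aqp4 and Apoe, all lower in the KO. Of all 13507 RNA genes, 15.1% did not overlap (7.97% lower and 7.1% higher). The median RNA log2 difference was −0.25 for the 10 genes and −0.001 for all genes. Serpina3n enters both comparisons and was picked for its lower RNA, so no conclusion about the 10 genes is drawn from them.

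Serpina3n RNA stood at 83.1, 92.4, 63.8 and 37.4 CPM in control mice 1, 3, 6 and 8. In KO mice 2, 4, 5 and 7 it stood at 13.1, 12.6, 10.3 and 13.5 CPM. The controls spread over more than the KO mice, with control mouse 8 lowest, and the groups did not overlap. The RNA means were 69.2 ± 24.3 (SD, n = 4) and 12.4 ± 1.39 (SD, n = 4) CPM, a log2 difference of −2.48 ± 0.22 (SE), the 3rd largest fall of all RNA genes tested. It was −2.68 without control mouse 8, −2.77 in mice 1 to 4 alone and −2.07 in mice 5 to 8 alone. In the exon-wide counts deposited beside these, it was −2.38 ± 0.23 (SE), the 13th largest fall. Serpina3n was picked for its lower RNA, so these RNA ranks are descriptions.

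Serpina3n footprints stood at 64.3, 58.6 and 58.6 CPM in control mice 1, 3 and 9 and at 12.4, 11.2 and 11.5 CPM in KO mice 2, 4 and 10. The control footprints lay close together, and the lowest control lay far above the highest KO. Control mice 6 and 8, which had the lower control RNA values, had no footprint library. Footprints fell by 2.36 (log2, SE 0.11; adjusted p = 3.901e-34), from 60.5 ± 3.30 (SD, n = 3) to 11.7 ± 0.59 (SD, n = 3) CPM, the 7th largest fall among all footprint genes. These levels rested on 272 to 345 Serpina3n footprint counts per control library and 50 to 55 per KO library. Mice 9 and 10 were in no RNA library, and their pair alone gave −2.34, beside −2.38 for mice 1 and 2 and −2.39 for mice 3 and 4. Near copies of Serpina3n in the same gene cluster could share its reads. The listed relative highest in controls, Serpina3m, had mean RNA levels of 1.95 CPM in controls and 0.495 in the KO. Serpina3h had no values, and no relative with values had enough counts to be tested.

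C4b encodes complement component C4, which is cleaved in the classical pathway and tags targets for removal. Its RNA stood at 21.3, 20.6, 15.3 and 15.3 CPM in control mice 1, 3, 6 and 8 and at 13.1, 11.4, 13.8 and 14.2 CPM in KO mice 2, 4, 5 and 7. The groups did not overlap, but control mice 6 and 8 came close to the KO mice, and the RNA log2 difference was −0.77 in mice 1 to 4 and −0.12 in mice 5 to 8, with −0.47 ± 0.13 (SE) over all 8. C4b footprints stood at 16.8, 19.2 and 15.3 CPM in control mice 1, 3 and 9 and at 11.9, 11.4 and 11.3 CPM in KO mice 2, 4 and 10. They fell by 0.57 (log2, SE 0.15; adjusted p = 0.0029), and adjusted p rose to 0.0461 without control mouse 3, the highest library. C4a, a near copy of C4b, had mean RNA levels of 0.311 CPM in controls and 0.402 in the KO.

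Gfap, the astrocyte intermediate filament protein, varied little within a genotype. Its RNA stood at 173, 172, 168 and 164 CPM in control mice 1, 3, 6 and 8 and at 120.4, 121, 129 and 118 CPM in KO mice 2, 4, 5 and 7. All 4 KO mice lay under all 4 controls in RNA, with a log2 difference of −0.47 ± 0.05 (SE). Gfap footprints stood at 193, 190.4 and 203 CPM in control mice 1, 3 and 9 and at 148, 156 and 159 CPM in KO mice 2, 4 and 10. They fell by 0.34 (log2, SE 0.05; adjusted p = 2.071e-09), and each of the 3 pairs under one title prefix gave a fall, of −0.39, −0.35 and −0.29.

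Vim encodes vimentin, the filament partner of Gfap, which endothelial and meningeal cells also make. Vim RNA stood at 52.4, 47.3, 43.9 and 36.7 CPM in control mice 1, 3, 6 and 8 and at 43.4, 42.6, 29.1 and 41.8 CPM in KO mice 2, 4, 5 and 7. The RNA groups overlapped, with the lowest value in KO mouse 5 and a log2 difference of −0.195 ± 0.13 (SE). That difference was −0.08 without KO mouse 5 and −0.11 without control mouse 1. Vim footprints stood at 81.6, 82.1 and 78.1 CPM in control mice 1, 3 and 9 and at 70.1, 71.8 and 64.2 CPM in KO mice 2, 4 and 10. The footprint groups did not overlap, and footprints fell by 0.23 (log2, SE 0.07; adjusted p = 0.0071). This call was lost in 4 of 12 alternatives: adjusted p was 0.0840 without KO mouse 10, 0.0513 on plain library sizes, 0.0621 with DESeq2 and 0.2311 in one fit over all 14 libraries.

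**Figure D1:**
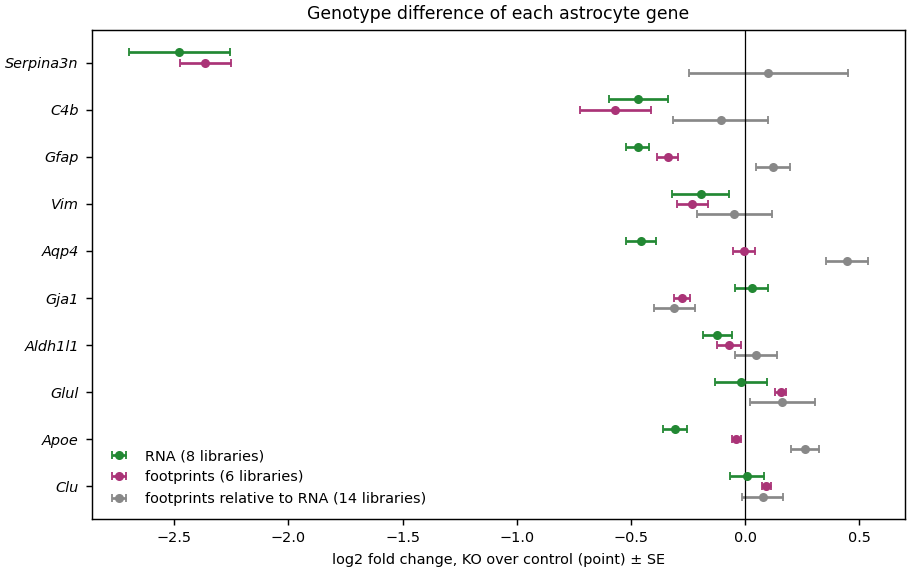
Fitted log2 difference between KO and control (points, with standard errors as bars) for the 10 genes in RNA and in footprints, with 0 as no difference. Serpina3n lies near −2.4 in both assays, Aqp4 and Apoe lie further below 0 in RNA (−0.46 and −0.31) than in footprints (−0.006 and −0.04), and Gja1 lies at −0.28 in footprints and 0.03 in RNA.

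The channel and coupling genes gave different patterns in the 2 assays. Aqp4, the endfoot water channel, stood at 122, 120.3, 117 and 106 RNA CPM in control mice 1, 3, 6 and 8 and at 83.8, 90.8, 77.1 and 87.5 CPM in KO mice 2, 4, 5 and 7. The RNA groups did not overlap and the log2 difference was −0.46 ± 0.07 (SE). Aqp4 footprints stood at 148, 157 and 156 CPM in control mice 1, 3 and 9 and at 153, 160.5 and 147 CPM in KO mice 2, 4 and 10. The footprint groups overlapped throughout, with a log2 difference of −0.006 ± 0.05 (SE, adjusted p = 0.9460).

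Gja1 (connexin 43), which forms the gap junctions between astrocytes, had the reverse order. Gja1 RNA stood at 98.9, 98.6, 107 and 108 CPM in control mice 1, 3, 6 and 8 and at 104, 101, 121 and 95.1 CPM in KO mice 2, 4, 5 and 7. The RNA groups overlapped, with a log2 difference of 0.03 ± 0.07 (SE). Gja1 footprints stood at 400.2, 389.8 and 400.3 CPM in control mice 1, 3 and 9 and at 339, 330.2 and 315 CPM in KO mice 2, 4 and 10. All KO footprint libraries lay below all controls, and footprints fell by 0.28 (log2, SE 0.03; adjusted p = 6.800e-11).

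Aldh1l1, a folate enzyme used as a general astrocyte marker, stood between 105 and 124 RNA CPM in controls and between 99.4 and 113 in the KO. Its footprints stood between 139.6 and 157 CPM in controls and between 135 and 144 in the KO. Both assays overlapped, and the footprint log2 difference was −0.07 ± 0.05 (SE, adjusted p = 0.3348).

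Glul encodes glutamine synthetase, which turns glutamate taken up by astrocytes into glutamine. Glul RNA stood at 1129, 1009.9, 1313 and 1678 CPM in control mice 1, 3, 6 and 8 and at 1259.8, 1209, 1337 and 1260.5 CPM in KO mice 2, 4, 5 and 7. The controls enclosed all KO values, with control mouse 8 highest, and the RNA log2 difference was 0.21 in mice 1 to 4 and −0.20 in mice 5 to 8. Glul footprints stood at 808, 767 and 791 CPM in control mice 1, 3 and 9 and at 857, 895 and 879 CPM in KO mice 2, 4 and 10. They rose by 0.15 (log2, SE 0.03; adjusted p = 6.422e-07), with no overlap. In one fit over all 14 libraries, where RNA libraries add to the spread, adjusted p was 0.4069.

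Apoe and Clu encode the main lipid-carrying proteins that astrocytes secrete, apolipoproteins E and J. Apoe RNA stood at 1789.8, 1856, 1805 and 1865 CPM in control mice 1, 3, 6 and 8 and at 1421, 1469, 1566 and 1453 CPM in KO mice 2, 4, 5 and 7. As for Aqp4, the RNA groups were well apart, with a log2 difference of −0.31 ± 0.05 (SE), and the footprints were not. Apoe footprints stood at 2674, 2781 and 2649 CPM in control mice 1, 3 and 9 and at 2562, 2699.7 and 2628 CPM in KO mice 2, 4 and 10. Their log2 difference was −0.04 ± 0.02 (SE, adjusted p = 0.1539).

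Clu RNA stood at 735, 758, 829 and 966 CPM in control mice 1, 3, 6 and 8 and at 830.0, 833, 829 and 815 CPM in KO mice 2, 4, 5 and 7. The KO values sat within the range of the controls, and the RNA log2 difference was 0.01 ± 0.07 (SE), from 0.16 in mice 1 to 4 to −0.13 in mice 5 to 8. Clu footprints stood at 1536, 1568 and 1578 CPM in control mice 1, 3 and 9 and at 1629.8, 1663 and 1700.3 CPM in KO mice 2, 4 and 10. The footprint groups did not overlap, and the rise of 0.09 on the log2 scale (SE 0.02, adjusted p = 3.899e-04) was the smallest of the 7 called changes. Adjusted p was 0.4326 in one fit over all 14 libraries.

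The same 10 genes were set side by side as footprint CPM over RNA CPM in the 4 mice with both libraries (controls 1 and 3, KO 2 and 4). This ratio describes footprints per RNA within a gene and can depend on the region each column counts. On the log2 scale its median over 12145 genes was −0.14 in control mice. Gja1 had the highest ratio of the 10, at 2.01 and 1.98 (log2) in control mice 1 and 3 and 1.69 and 1.71 in KO mice 2 and 4, above 99.2% of all genes in controls. Aqp4 stood at 0.28 and 0.38 in the controls and at 0.87 and 0.82 in the KO. Apoe stood at 0.58 in both controls and at 0.85 and 0.88 in the KO. Serpina3n stood at −0.37 and −0.65 in the controls, above 33.8% of all genes, and at −0.08 and −0.16 in the KO, above 50.3%.

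Over all 14 libraries, the KO difference in footprints beyond that in RNA, as log2, was 0.44 ± 0.09 (SE) for Aqp4, 0.26 ± 0.06 (SE) for Apoe and −0.31 ± 0.09 (SE) for Gja1. For the other 7 genes it lay between −0.11 (C4b) and 0.16 (Glul), with Serpina3n at 0.10 ± 0.35 (SE). These values contain the RNA difference that entered the choice of genes and are a description. They do not use the exon-wide counts, in which the Aqp4 RNA fall was smaller (−0.26, against −0.46). With the mouse as a replicate block the signs of C4b, Glul and Clu turned, to 0.13, −0.07 and −0.08, and Serpina3n moved to 0.39.

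**Figure D2:**
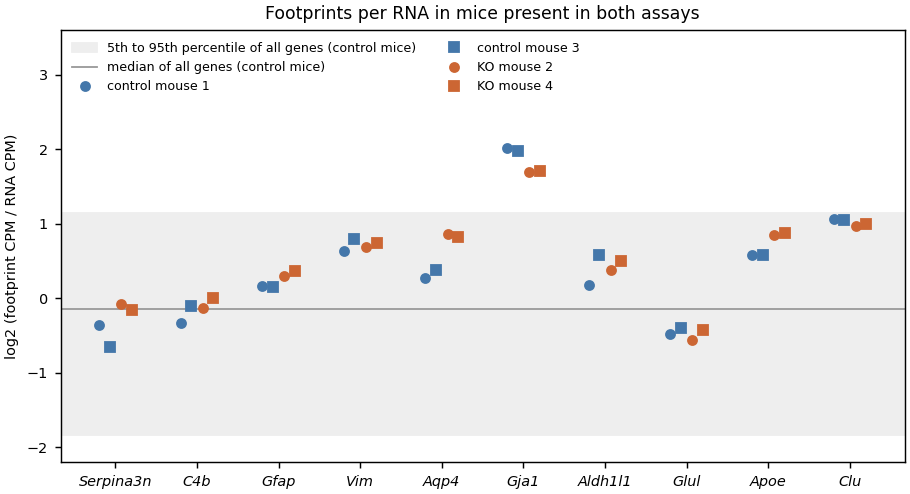
Footprint CPM over RNA CPM (log2) for the 10 genes in control mice 1 and 3 and KO mice 2 and 4, each point a mouse. Aqp4 and Apoe lie higher in both KO mice, Gja1 lies lower in both, and Clu stays close to 1 in all 4.

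The RNA difference of Aqp4 moved with the stretch of transcript counted. The table holds an exon-wide count beside each RNA count, and the RNA count was 97.7% of the exon-wide count for C4b, 67.0% for Serpina3n, 49.95% for Gfap, 32.9% for Gja1 and 21.8% for Aqp4, as control means. For Aqp4 this share ran from 20.08% to 22.6% in controls and from 17.1% to 20.05% in the KO, so the groups all but touched. The Aqp4 RNA log2 difference was −0.46 ± 0.07 (SE) in the shorter counts and −0.26 ± 0.06 (SE) in the exon-wide counts. Gfap gave −0.41 exon-wide, against −0.47 in the shorter counts, while Apoe gave −0.31 and Clu 0.01 in both. Gja1 gave −0.06 ± 0.06 (SE) exon-wide, against 0.03 ± 0.07 (SE) in the shorter counts.

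Other genes of astrocytes and of the pathways around the 10 were taken from fixed lists, 193 genes in all. In footprints 49 of 148 tested were called (21 lower, 28 higher; 33.1%, against 25.5% of all genes). In RNA 14 of 161 tested were called (6 lower, 8 higher; 8.7%, against 7.41% of 13507 genes, 3.88% lower and 3.53% higher).

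Of 42 homeostatic astrocyte genes, footprints of 13 rose and of 5 fell (42.9% called, against 25.5% of all genes, 11.9% higher and 13.6% lower), with a median log2 difference of 0.06. The largest rises were of Dio2, the deiodinase that activates thyroid hormone (0.44 ± 0.12, SE), Ppp1r3c (0.395 ± 0.08, SE), Itih3 (0.36 ± 0.11, SE) and F3 (0.335 ± 0.09, SE). The F3 rise lost its call without KO mouse 4 (adjusted p = 0.2092), that of Itih3 with DESeq2 (0.0586), and those of Dio2 (0.0776), Ppp1r3c (0.0534) and F3 (0.1451) in one fit over all 14 libraries. The largest falls were of Fabp7, a brain fatty-acid binding protein (−0.33 ± 0.06, SE), the proteoglycan Bcan (−0.25 ± 0.03, SE), Fgfr3 (−0.21 ± 0.07, SE) and Mt3 (−0.145 ± 0.03, SE). Fgfr3 lost its call without KO mouse 10 (adjusted p = 0.1420) and Mt3 in the fit over all 14 libraries (0.1115). The transcription factor Sox9 rose in footprints by 0.26 (adjusted p = 0.0078), whereas Slc1a3 and S100b were not called (adjusted p = 0.7350 and 0.1192).

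In RNA, 2 of these 42 genes fell and 3 rose (11.9% called, against 7.41% of all genes, 3.88% lower and 3.53% higher). Fabp7 RNA fell from 96.4 ± 14.9 (SD, n = 4) to 55.3 ± 1.48 (SD, n = 4) CPM, or by 0.80 on the log2 scale (edgeR adjusted p = 3.506e-04). Kcnj10, the inward-rectifier potassium channel Kir4.1, rose in RNA from 33.5 ± 2.72 (SD, n = 4) to 52.7 ± 5.31 (SD, n = 4) CPM, or by 0.65 (edgeR adjusted p = 8.062e-04). Kcnj10 footprints were 208 ± 6.55 (SD, n = 3) and 218 ± 6.39 (SD, n = 3) CPM, a log2 difference of 0.06 (edgeR adjusted p = 0.3173). As a description, since these genes were named for their RNA calls, the KO difference in footprints beyond that in RNA was −0.595 ± 0.10 (SE) for Kcnj10 and 0.46 ± 0.13 (SE) for Fabp7. In the exon-wide counts the Kcnj10 RNA rise was smaller, at 0.29 ± 0.05 (SE, edgeR adjusted p = 0.0034), and the value beyond RNA rests on the shorter counts. Fabp7 and Kcnj10 were the only RNA calls among the 193 genes of the fixed lists that held in every alternative run. Among marker genes of other cells and regions, given below, the RNA calls of Hcrt and Camk2a also held. Slc6a11 (0.30), Slc4a4 (0.24) and Gabrg1 (−0.25) each lost theirs when a single library was left out, with adjusted p between 0.0524 and 0.1342.

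Of 44 further reactive astrocyte genes, 27 were tested in footprints, of which 5 fell and 3 rose (29.6% called, against 25.5% of all genes), with a median of −0.08. The falls included Tnc, an extracellular matrix glycoprotein (−0.84 ± 0.16, SE), Thbs1, the secreted thrombospondin (−0.80 ± 0.17, SE), Cd44, a hyaluronan receptor (−0.67 ± 0.19, SE), and Psmb8 (−0.84 ± 0.31, SE). The rises were of the small heat-shock protein Hspb1 (1.41 ± 0.40, SE), Ptgs2 (0.78 ± 0.16, SE) and Tm4sf1 (0.46 ± 0.17, SE). Leaving out 1 library ended the calls of Psmb8 and Tm4sf1 (adjusted p up to 0.1495 and 0.2133), of Hspb1 (0.0506 without control mouse 3) and of Cd44 (0.0512 without KO mouse 10). Lcn2 and C3, commonly used reactive markers, had too few footprints to be tested. In RNA 33 were tested and 3 called (9.09%, against 7.41% of all genes). Cd44 (−0.61) and S100a10 (−0.36) were lower and Hspb1 (0.90) higher, each call lost when some single library was left out.

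In the list of interleukin-6 and Stat3 signalling, 14 genes were tested in footprints and only Junb, an immediate-early transcription factor that neurons also induce, was called (7.14%, against 25.5% of all genes). Junb footprints rose from 86.7 ± 1.56 (SD, n = 3) to 299 ± 15.0 (SD, n = 3) CPM, or by 1.78 on the log2 scale (edgeR adjusted p = 2.228e-54). Junb was also the 1 gene of 15 called in RNA (1.13; 6.67%, against 7.41% of all genes), with overlapping groups and a call lost in mice 5 to 8 alone (adjusted p = 0.1446) and with the near-identical libraries summed (up to 0.2052). Stat3 footprints differed by 0.08 (adjusted p = 0.4494).

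Of the complement list, 10 were tested in footprints and 2 fell (13.6% of all genes fell), among them C1qb, a chain of the initiating C1q complex made by microglia (−0.48 ± 0.08, SE). In RNA 14 were tested and 2 fell (3.88% of all genes fell), C1qb (−0.45) and C2 (−0.85), and both calls were lost when KO mouse 4 was left out (adjusted p = 0.0507 for C1qb and 0.1427 for C2).

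Of the lipoprotein-handling list, footprints of 4 of 17 genes fell (23.5% called, against 25.5% of all genes): Lrp1, an Apoe receptor, from 1439 ± 22.01 (SD, n = 3) to 1062 ± 27.1 (SD, n = 3) CPM (−0.44 ± 0.02, SE), the cholesterol exporter Abca1 (−0.30 ± 0.07, SE), Sorl1 (−0.19 ± 0.03, SE) and Vldlr (−0.17 ± 0.06, SE). The Vldlr call was lost without control mouse 9 (adjusted p = 0.0705) or KO mouse 10 (0.0549). In RNA none of 18 was called by edgeR or DESeq2, and 1 had an unadjusted edgeR p under 0.05.

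Of the next 3 lists, 25.0% of the glutamate and of the endfoot genes and 37.5% of the folate genes tested were called in footprints, against 25.5% of all genes. Of 12 genes of the glutamate-glutamine cycle, footprints of 1 fell (Glud1, −0.14) and of 2 rose (Slc17a7, 0.08, and the glutamate transporter Slc1a2, 0.06). Both rises were lost when control mouse 3 was left out (adjusted p = 0.0804 and 0.0727). The Glud1 call was lost on plain library sizes (0.0618) and in one fit over all 14 libraries (0.0554). In RNA, Slc17a7 (0.20) was the 1 called gene of 12 (8.33%, against 7.41% of all genes). Its call was lost without KO mouse 7 (adjusted p = 0.1164) among others. Of 12 endfoot and coupling genes, footprints of Tjp1 (−0.27 ± 0.04, SE) and Dag1 (−0.23 ± 0.04, SE) fell and those of Dmd rose (0.215 ± 0.07, SE), the last lost without KO mouse 2 (adjusted p = 0.1920). Kcnj10 was the 1 called of 13 such genes in RNA (7.69%, against 7.41% of all genes). Of 8 folate genes, Shmt2 (−0.40 ± 0.10, SE) and Mthfd1 (−0.22 ± 0.07, SE) fell and Mthfd1l rose (0.29 ± 0.11, SE) in footprints. The Mthfd1 call was lost on plain library sizes (adjusted p = 0.0524) and with DESeq2 (0.0538). That of Mthfd1l was lost without any 1 of several libraries (adjusted p up to 0.1511). In RNA none was called by edgeR or DESeq2, with 2 at an unadjusted edgeR p under 0.05.

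Markers of other cells and regions moved with genotype, and their part in the results above was not tested. The summed RNA of 12 hypothalamic genes was 77.9, 79.4, 58.9 and 43.7 CPM in control mice 1, 3, 6 and 8 and 27.9, 28.1, 23.8 and 26.7 CPM in KO mice 2, 4, 5 and 7. In RNA the control mice stood in the same order for this sum as for Serpina3n, with mouse 8 lowest in both. Ddc, Gabra2, Wdfy1 and Tpm3 had the same order in RNA. The footprints of the 12 genes summed to 116 to 126 CPM in controls and 44.7 to 51.85 in the KO. Here the order of the controls differed: mouse 9 was highest for the sum, and mice 3 and 9 were lowest for Serpina3n (58.6 CPM each). All 6 of these genes that could be tested in footprints fell, against 13.6% of all genes. Only Rax was at 0, in footprints. Hcrt RNA, the hypothalamic neuropeptide orexin, fell by 3.47 on the log2 scale, from a mean of 4.5 to 0.374 CPM. In the KO RNA libraries 3 counts amount to 0.264 to 0.339 CPM, so the KO level rests on very few reads. Oxt RNA differed by −0.10 (adjusted p = 0.8266).

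Meningeal fibroblast markers, 8 genes, summed to 882 to 928 RNA CPM in controls and 617 to 693 in the KO, and to 1699 to 1739 and 1123 to 1168 in footprints. Of these 8 genes 7 fell in footprints and 6 in RNA, where 13.6% and 3.88% of all genes fell, and none was at 0. Without Ptgds, which held 69.9% of the RNA sum, they ran from 230.4 to 325 CPM in controls and from 171 to 200.4 in the KO. Summed oligodendrocyte RNA (10 genes) was 5319 to 5855 CPM in controls and 4751 to 5063 in the KO, that of oligodendrocyte precursors (6 genes) 273 to 301 and 243 to 262, and that of excitatory neurons (8 genes) 2549.7 to 2822 and 3191 to 3461. The footprint sum of the excitatory genes overlapped, at 5633 to 5777 CPM in controls and 5430.2 to 5698 in the KO, and Camk2a rose in RNA by 0.75 (edgeR adjusted p = 7.597e-04; 0.40 in the exon-wide counts) and fell in footprints (−0.14, edgeR adjusted p = 1.710e-09). Summed microglial RNA (10 genes) overlapped, at 655 to 689.5 and 674 to 689 CPM, but their footprint sums did not, at 763 to 794 in controls and 833 to 856 in the KO. Footprint sums were also higher in the KO for endothelium and pericytes (10 genes), at 373 to 388 and 394 to 405, and for inhibitory neurons (8 genes), at 1647 to 1693 and 1721 to 1749. Those of oligodendrocyte precursors were lower, at 552 to 564 and 433 to 450.5, as were those of oligodendrocytes, at 9009.6 to 9167 and 8909 to 8944.

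Genes with an RNA pattern most like that of Serpina3n were found by Pearson r of log2 CPM over the 8 RNA libraries, among 11453 genes of at least 5 CPM. These libraries include the near-identical KO mice and share 2 genotypes, so r is a description. The highest were Ddc (0.995), Gabra2 (0.994), Wdfy1 (0.994), Tpm3 (0.993) and Fabp7 (0.992). Of the 10 genes, Aqp4 (0.977, rank 16) and Gfap (0.956, rank 52) came nearest, and Clu was lowest (−0.349). With each genotype's mean taken off, the nearest were Sltm (0.997), Smg6 (0.996), Nat10 (0.99), Baiap3 (0.988) and Col4a2 (0.987), and of the 10 genes Aqp4 stood at 0.784, Vim at 0.759, C4b at 0.68 and Gfap at 0.279. Glul (−0.974) and Clu (−0.943) then ran opposite to Serpina3n, both highest in control mouse 8, where Serpina3n was the lowest of the controls.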

How the data were processed

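RNA-seq (8 libraries) and ribosome profiling (6 libraries) were analysed from a single table of raw counts per gene that the authors deposited. Footprint, RNA and exon-wide RNA counts each had their own columns. Per the submitters' processing notes, Bowtie2, STAR 2.5, featureCounts and Subread 1.4.6 and the builds mm9 and mm10 were used, with no role given. The region counted and the strand setting are not given in the sources used here. Per the labels' protocols, RNA was depleted of ribosomal RNA and its libraries were strand-specific. Footprint and RNA values were held for 20563 of 23412 genes, and 2849 had none. Gene names that a spreadsheet had turned into dates numbered 27.

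Groups and mouse numbers came from the labels. Counts were scaled by TMM to CPM, genes were kept by filterByExpr at 10 counts, and genotypes were compared with edgeR 4.0.16 in R 4.3.3 (quasi-likelihood test, two-sided, Benjamini-Hochberg over all genes, threshold 0.05), without a block. The model across all genes was tested on simulated data. The genes, lists and tests were chosen with earlier results of these data known. Named beside the 10 genes were, per list and assay, up to 4 called genes with the largest rise and 4 with the largest fall. Also named were a few further list genes chosen after their values were seen (Sox9, Slc1a3, S100b, Sparcl1, Stat3, Lcn2, C3, Fkbp5, Serpina3m, Serpina3h, C4a, Ptgds). Per shifted marker list, the genes with the largest and smallest RNA difference were taken, of which Hcrt, Oxt and Camk2a are given. The 5 genes most like Serpina3n by r with and without genotype means were named as well.

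The labels give mice 1 to 4 the same number in both assays, and the pairing of RNA and footprints rests on these labels alone. Deviations from group means correlated little, at −0.002, 0.052, 0.022 and −0.004 across 9179 genes in mice 1, 3, 2 and 4. Within an assay no control and KO mouse share a number. Alternatives were other scalings, no filter, DESeq2 1.42.0, one fit over all 14 libraries, title prefix or mouse as a block, subsets of mice, near-identical libraries summed, exon-wide counts and leaving out each library. Protein sequences were not used here. The values of 1 list gene are not reported here. Intervals given are standard errors or SDs over libraries.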

Additional observations from a re-analysis of the deposited data

Results flagged for a closer look

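In 42 groups of 4 RNA libraries (the 10 genes and 11 marker sums in each genotype), 9 had a highest or lowest library set apart from the rest, where chance gives about 2.1 in independent libraries. That number does not apply to the KO, since mice 2, 4 and 7 were nearly identical and a gap then falls to mouse 5, as it did in 7 of the 9. Vim RNA was lowest in KO mouse 5, at 29.1 CPM, where the other KO mice stood between 41.8 and 43.4. In KO mouse 5 the summed markers of endothelium and pericytes were also lowest (218 CPM, others 320.4 to 335), as were those of meningeal fibroblasts (617 CPM, others 686 to 693). The same library was highest for homeostatic astrocytes (10771 CPM, others 9524 to 9666), excitatory neurons (3461 CPM, others 3191 to 3227), radial and Bergmann glia with progenitors (676 CPM, others 557 to 576) and choroid plexus with ependyma (131 CPM, others 18.2 to 21.9). Control mouse 8 was highest for choroid plexus and ependyma (294 CPM, others 24.5 to 32.3) and lowest for meningeal fibroblasts (882 CPM, others 920.5 to 928). None of these libraries was left out of the values above.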

How the results depend on the processing

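Among the 10 genes the footprint falls of Serpina3n, C4b, Gfap and Gja1 kept their direction and call in all 12 alternatives. One fit over all 14 libraries called 4 of the 10 genes in footprints, losing Vim, Glul and Clu. Listed genes called in footprints numbered 32 with DESeq2 and 25 in that fit (49 as reported), and all genes 1801 and 1684 (3102 as reported). Plain library sizes moved the median of all footprint genes to 0.065 and the share of calls that were higher from 46.7% to 66.3%. RNA calls depended on the libraries far more. Listed genes called in RNA (14) became 3 with KO mice 2, 4 and 7 summed, 2 with control mice 1 and 3 summed as well, 3 in mice 5 to 8 and 53 in mice 1 to 4. Leaving out 1 library gave 7 to 28, the last without control mouse 8. All genes called in RNA (1001) became 79, 36, 88 and 3273, and 356 to 1763 with 1 library left out. The cause of these shifts was not tested, except that sums and subsets leave fewer libraries. With the mouse as a replicate block, the footprint difference beyond RNA was 0.50 for Aqp4, 0.27 for Apoe and −0.30 for Gja1. Depth also limits the lists: 17 of 44 reactive genes had too few footprints to test.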

Other observations

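Genes that respond to glucocorticoids, which astrocytes express among other cells, were listed because some reactive genes overlap them. Of 15 tested in footprints 8 rose (53.3%, against 25.5% of all genes), with a median log2 difference of 0.34, and Fkbp5, a standard target, was not called (−0.08, adjusted p = 0.6632). The largest footprint rises were of Dusp1, an immediate-early phosphatase, from 35.1 ± 1.76 (SD, n = 3) to 131 ± 7.50 (SD, n = 3) CPM (1.91 ± 0.07, SE), Tsc22d3 (0.61 ± 0.08, SE), the metallothionein Mt2 (0.49 ± 0.07, SE) and the clock gene Per1 (0.45 ± 0.07, SE). In RNA 2 of 16 were called (12.5%, against 7.41% of all genes), Dusp1 (1.385) and Per1 (0.81). Both lost their call with KO mice 2, 4 and 7 and control mice 1 and 3 summed (edgeR adjusted p = 0.1972 and 0.0601).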
